A study of Mus musculus with 8 samples.

Results

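The small leucine-rich proteoglycans (SLRPs) are secreted proteins of the extracellular matrix, built from leucine-rich repeats and, in most members, carrying glycosaminoglycan chains, and versican is a large chondroitin sulfate proteoglycan of the same matrix. The genes examined were *Dcn* (decorin), *Bgn* (biglycan), *Aspn* (asporin), *Lum* (lumican), *Fmod* (fibromodulin), *Prelp*, *Omd* (osteomodulin), *Ogn* (osteoglycin), *Podn* (podocan) and *Vcan* (versican), chosen by name because they bind collagen fibrils or fill the space between them, and matched to the counts table by Ensembl gene identifier. They are 10 of the 52325 genes in the table. The libraries came from female mice in metestrus, 4 of each genotype, whose endometrium was cut out of frozen uterine sections by laser capture. Thra1PV/+ mice carry a germline knock-in of the PV mutation in one allele of *Thra*, which gives a thyroid hormone receptor alpha 1 that no longer responds to hormone and acts in a dominant negative way in every tissue that expresses it. WT mice carry no such mutation. The strain and the age of the sampled mice are not given in the sources used here, and nothing separates epithelium from stroma within a library. *Thra* itself had 127, 45.8, 67.8 and 80.0 CPM (counts scaled to library size, defined below) in Thra1PV/+ libraries 1 to 4 and 110.0, 104, 50.3 and 47.4 CPM in WT libraries 1 to 4, values that do not tell the mutated transcript from the normal one.

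In the uterus, SLRPs coat collagen fibrils, set their width and spacing, and hold growth factors such as TGF-beta near cells. Class I members (decorin, biglycan, asporin) and class II members (lumican, fibromodulin, PRELP, osteomodulin) bind fibrils at different or overlapping sites, osteoglycin belongs to class III, and versican forms hydrated complexes with hyaluronan that change as the endometrium grows, decidualizes and is remodelled. Stromal fibroblasts are the usual source of decorin and lumican.

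The deposited values were estimated counts, 48791602 to 59818887 per library. CPM are counts per unit of library size after TMM scaling, a correction for composition, and compare genotypes. Levels of different genes are ranked in TPM, which the authors computed per transcript length, with counts divided by exon length as an alternative. Differences were tested with edgeR's quasi-likelihood test over all 18174 genes with enough counts, with Benjamini-Hochberg adjustment, and a call needed a fold change of 2 or more with an adjusted p of 0.1 or less. Every adjusted p below is from that test unless another tool is named.

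Before the individual genes, the libraries were compared on marker gene lists, because several stood apart. The list of 16 stromal fibroblast genes (*Pdgfra*, *Vim*, *Esr1* and others, all 16 tested, none at 0) summed to 2850.4, 641, 941 and 1119 CPM in Thra1PV/+ libraries 1 to 4 and 2911, 3623, 1228 and 1396 CPM in WT libraries 1 to 4, and *Vim* had its highest mean TPM in both genotypes. Thra1PV/+ library 1 and WT libraries 1 and 2 were therefore high in stromal transcripts and Thra1PV/+ library 2 was lowest. The 10 smooth muscle genes, none at 0 in all libraries and *Acta2* highest in mean TPM in WT endometrium, summed to 428, 151, 189 and 708 CPM in Thra1PV/+ and 13536, 769, 589.8 and 1184 CPM in WT libraries. WT library 1 had 11.4 times the sum of the next highest library. The 12 simple epithelium genes, with *Krt19* highest in mean TPM, summed to 2896, 6684, 7216 and 5249 CPM in Thra1PV/+ and 2839, 3367, 8292 and 7196 CPM in WT libraries, lowest where the stromal sum was high. In bulk samples, fewer cells of a type and less RNA per cell cannot be told apart.

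**Figure D1:**
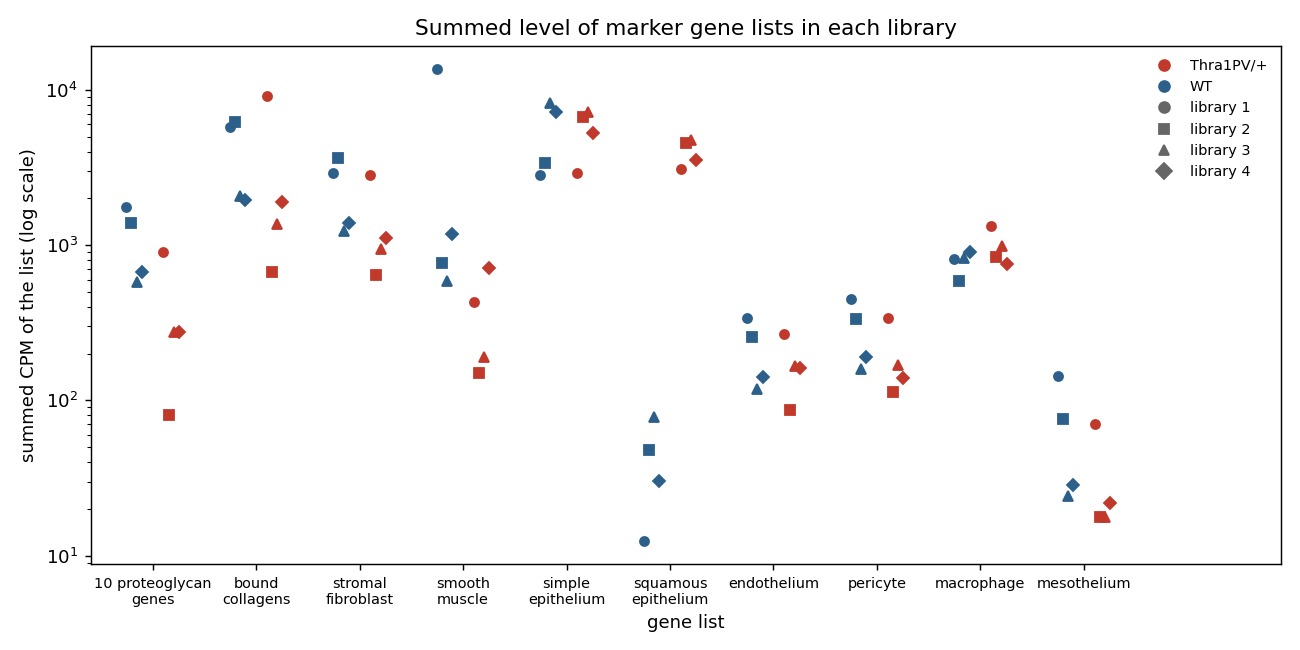
Summed CPM (log scale) of each gene list in each library, where each point is 1 library, red for Thra1PV/+ and blue for WT, with the symbol giving the library number. The smooth muscle sum of WT library 1 stands at 13536 CPM, and the squamous epithelium sums of both genotypes are far apart.

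Of the 10 proteoglycan genes, all 10 had enough counts to be tested and 0 were called with edgeR, where 180 of 18174 tested genes were called, a share of 0.990%. At an unadjusted p under 0.05, 4 of the 10 passed, *Fmod* higher and *Dcn*, *Aspn* and *Omd* lower in Thra1PV/+ endometrium, beside 9.77% of all tested genes. DESeq2 called 2 of the 10, *Fmod* higher (adjusted p = 5.62e-06) and *Dcn* lower (adjusted p = 0.0466), beside 3.58% of all genes it tested (791 of 22073), and limma voom with sample quality weights called 1, *Fmod*, beside 1.71% (311 of 18174). The 4 libraries of one genotype lay wholly apart from the 4 of the other for 3 of the 10 genes, *Fmod* higher and *Dcn* and *Omd* lower, beside 6.04% of all tested genes. With libraries scaled by their totals alone, only *Fmod* kept that separation, and in the deposited TPM only *Fmod* and *Omd* did. The share of all genes was not counted on those scales. The log2 fold changes were negative for 8 genes and positive for 2, with a median of -1.66 beside -0.05 over all tested genes. With limma on log2 TPM at a pseudocount of 1, the median of the 10 genes was -0.74.

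**Figure D2:**
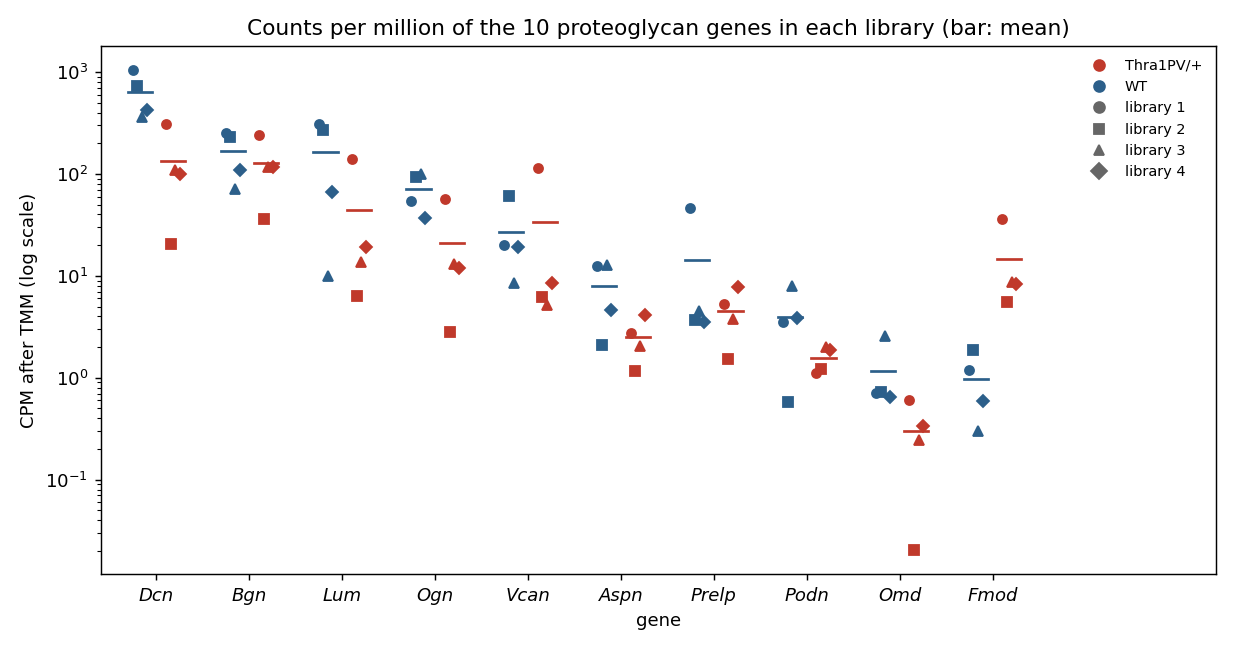
CPM after TMM (log scale) of each of the 10 genes in each library, ordered by mean TPM in WT endometrium, red for Thra1PV/+ and blue for WT, with bars at the mean of 4 libraries. Every Fmod point of Thra1PV/+ lies above every WT point, and every Dcn and Omd point lies below.

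Decorin, the class I proteoglycan that binds the fibrillar collagens and TGF-beta, had the highest TPM of the 10 transcripts in 7 of 8 libraries, all but Thra1PV/+ library 2. *Dcn* (ENSMUSG00000019929.16, chr10:97479609-97518143 of GRCm38) had 312, 20.3, 110.1 and 98.9 CPM in Thra1PV/+ libraries 1 to 4 and 1049, 725, 365 and 422 CPM in WT libraries 1 to 4. Every Thra1PV/+ library lay below every WT library, by a narrow margin between Thra1PV/+ library 1 and WT library 3, and Thra1PV/+ library 2 was far below the rest. The means were 135 ± 124 and 640.1 ± 315 CPM (SD, n = 4), a log2 fold change of -2.24 (adjusted p = 0.355, standard error 0.74), a fit of 4.73-fold lower that did not pass the threshold. Over the fits that each left out 1 library, the log2 fold change ranged from -3.02 to -1.86 (adjusted p from 0.159 to 0.749). In the deposited TPM values, Thra1PV/+ library 1 (301 TPM) lay above WT library 3 (267 TPM), so on that scale the genotypes overlapped.

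Biglycan is the closest relative of decorin and also binds TGF-beta and collagen. *Bgn* (ENSMUSG00000031375.17, chrX:73483602-73495933) had 243, 35.9, 117 and 117 CPM in Thra1PV/+ libraries 1 to 4 and 253, 232, 70.7 and 110.0 CPM in WT libraries 1 to 4. The genotypes overlapped throughout, with library 1 high in both, and Thra1PV/+ library 2 lowest of all 8. The comparison gave a log2 fold change of -0.38 (adjusted p = 0.892, standard error 0.59), a difference smaller than its standard error, and the fits without 1 library ranged from -0.84 to -0.06. Asporin, the third class I member, has a run of aspartate residues in place of a glycosaminoglycan chain. *Aspn* (ENSMUSG00000021388.14, chr13:49544443-49567565) had 2.75, 1.18, 2.04 and 4.13 CPM in Thra1PV/+ and 12.5, 2.11, 12.8 and 4.60 CPM in WT libraries. WT libraries 1 and 3 were high, WT library 4 was just above the highest Thra1PV/+ library, and WT library 2 lay among the Thra1PV/+ libraries. The result was a log2 fold change of -1.66 (adjusted p = 0.436, standard error 0.63), not past the threshold, and -1.04 on log2 TPM with a pseudocount of 1.

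Fibromodulin, a class II keratan sulfate proteoglycan that binds fibrillar collagen and guides its cross-linking, was the only one of the 10 with a positive log2 fold change under every fit that was run. *Fmod* (ENSMUSG00000041559.7, chr1:134037254-134048277) had 36.0, 5.56, 8.75 and 8.27 CPM in Thra1PV/+ libraries 1 to 4 and 1.18, 1.86, 0.298 and 0.586 CPM in WT libraries 1 to 4, on estimated counts of 274 to 1961 and 15 to 103. Every Thra1PV/+ library lay above every WT library, and Thra1PV/+ library 1 stood highest. The fit gave a log2 fold change of 3.89 (adjusted p = 0.107, standard error 0.81), just outside the threshold, a fitted 14.9-fold higher level. Without Thra1PV/+ library 1 the log2 fold change was 2.98 (adjusted p = 0.126), and without library 1 of both genotypes, a choice made after their marker sums were seen, it was 3.06 (adjusted p = 0.210). With limma on log2 TPM at a pseudocount of 1, the log2 fold change of *Fmod* was 2.02 (adjusted p = 0.118). The adjusted p lay on either side of the threshold with other choices, from 5.62e-06 with DESeq2 to 0.236 without WT library 4.

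Lumican, the class II proteoglycan encoded next to decorin, varied widely within each genotype. *Lum* (ENSMUSG00000036446.5, chr10:97565128-97572703) had 139, 6.31, 13.8 and 19.0 CPM in Thra1PV/+ libraries 1 to 4 and 311, 271, 9.87 and 66.3 CPM in WT libraries 1 to 4. WT library 3 lay among the low Thra1PV/+ libraries, and Thra1PV/+ library 1 lay between WT library 4 and WT library 2. The fit gave a log2 fold change of -1.89 (adjusted p = 0.671, standard error 1.20), with -3.61 to -1.34 (adjusted p from 0.311 to 0.945) when 1 library was left out. PRELP, which links collagen to the heparan sulfate of basement membranes, had a difference that rested on 1 library. *Prelp* (ENSMUSG00000041577.5, chr1:133910304-133921414) had 5.25, 1.52, 3.76 and 7.69 CPM in Thra1PV/+ and 45.9, 3.72, 4.54 and 3.50 CPM in WT libraries. WT library 1, the library with the high smooth muscle sum, stood alone, and the log2 fold change of -1.66 (adjusted p = 0.639) became 0.26 without it (adjusted p = 0.975). Osteomodulin, a class II member best known from bone, had few counts, and Thra1PV/+ library 2 was below the floor of 3 counts. *Omd* (ENSMUSG00000048368.9, chr13:49582462-49592822) had 33, 1, 12 and 19 estimated counts in Thra1PV/+ libraries 1 to 4 and 37, 40, 130 and 31 in WT libraries 1 to 4. In CPM every Thra1PV/+ library was below every WT library, with Thra1PV/+ library 1 at 0.606 CPM close to the lowest WT library at 0.649 CPM, and the fit gave a log2 fold change of -1.94 (adjusted p = 0.509, standard error 0.84). With 1 library left out the values ran from -2.48 to -1.18 (adjusted p from 0.366 to 0.858), and the value was -0.73 on log2 TPM with a pseudocount of 1 and -2.67 without library 1 of both genotypes.

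Osteoglycin (class III, also called mimecan) and podocan complete the SLRPs examined. *Ogn* (ENSMUSG00000021390.6, chr13:49608046-49624501) had 56.4, 2.80, 13.0 and 11.9 CPM in Thra1PV/+ libraries 1 to 4 and 54.6, 92.4, 99.0 and 36.8 CPM in WT libraries 1 to 4. Thra1PV/+ library 1 lay within the WT range and the other 3 Thra1PV/+ libraries below it, and the fit gave a log2 fold change of -1.75 (adjusted p = 0.532, standard error 0.80). Leaving out 1 library at a time gave -2.89 to -1.38 (adjusted p from 0.136 to 0.865), the largest difference without Thra1PV/+ library 1 and the smallest without Thra1PV/+ library 2. *Podn* (ENSMUSG00000028600.15, chr4:108014791-108096445) ranged from 1.12 to 1.98 CPM in Thra1PV/+ and from 0.578 to 7.92 CPM in WT libraries, with WT library 2 lowest of all 8, and a log2 fold change of -1.35 (adjusted p = 0.571, standard error 0.66). Without 1 library the values ranged from -1.68 to -0.76, and they were -0.68 with limma voom and -0.59 on log2 TPM with a pseudocount of 1.

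Versican had no stable direction. *Vcan* (ENSMUSG00000021614.16, chr13:89655312-89742509) had 114, 6.17, 5.15 and 8.46 CPM in Thra1PV/+ libraries 1 to 4 and 19.9, 60.8, 8.42 and 19.0 CPM in WT libraries 1 to 4. Thra1PV/+ library 1 was the highest of all 8, Thra1PV/+ libraries 2 and 3 lay below every WT library, and Thra1PV/+ library 4 was level with WT library 3. The log2 fold change was 0.31 (adjusted p = 0.959, standard error 1.09), and without Thra1PV/+ library 1 it turned to -1.98 (adjusted p = 0.323).

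**Figure D3:**
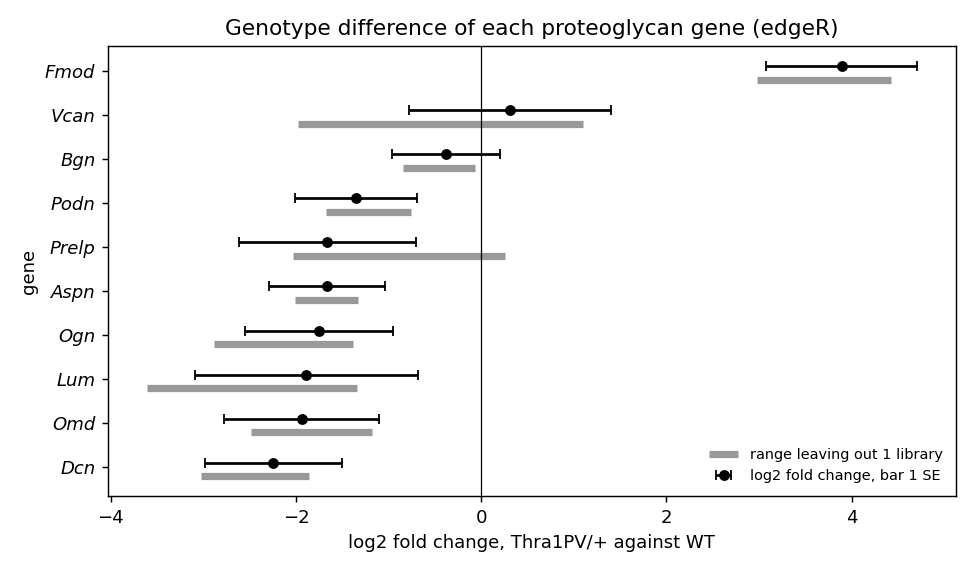
Log2 fold change of each of the 10 genes between Thra1PV/+ and WT endometrium (points, bars 1 standard error of the edgeR fit) with the range over the 8 fits that each left out 1 library (grey). Only the grey bars of Vcan and Prelp cross 0.

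Thra1PV/+ library 1 was the highest of its genotype for 7 of the 10 genes and Thra1PV/+ library 2 the lowest for 8, and library 2 was the lowest of all 8 libraries for 7. These are also the libraries with the highest and lowest stromal sums of that genotype, and the part of stromal content in the genotype differences was not tested. The summed CPM of the 10 genes was 910.0, 81.0, 276 and 277 in Thra1PV/+ libraries 1 to 4 and 1751, 1390.5, 581 and 667 in WT libraries 1 to 4, so Thra1PV/+ library 1 exceeded WT libraries 3 and 4.

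The order of the levels was read from TPM. In WT endometrium *Dcn* came first with 497 ± 238 TPM (SD, n = 4), above every other member in all 4 libraries. *Bgn* (91.8 ± 54.4 TPM) and *Lum* (90.2 ± 80.6 TPM) did not differ beyond their spread, and *Ogn* (37.4 ± 16.9 TPM) followed, its range overlapping that of *Lum* and lying wholly above that of *Vcan*. *Vcan*, *Aspn* (4.99 TPM) and *Prelp* (4.95 TPM) had overlapping ranges, and *Podn* (1.72 TPM), *Omd* (1.13 TPM) and *Fmod* (0.378 TPM) came last. In Thra1PV/+ endometrium the means of *Dcn*, *Bgn*, *Lum* and *Ogn* came in the same order, *Dcn* at 122 ± 124 and *Bgn* at 78.2 ± 64.3 TPM (SD, n = 4), whose ranges now overlapped. The mean of *Vcan* (7.69 TPM) came next, but it rested on library 1 with 28.3 TPM, and *Vcan* was above *Fmod* (5.72 ± 5.42 TPM) in only 1 of the 4 libraries. In Thra1PV/+ libraries 2 to 4 *Vcan* had 0.466 to 1.39 TPM, and *Omd* was last with 0.192 TPM. With counts divided by exon length in place of the deposited TPM, 6 of the 10 genes kept their place in each genotype. On that scale *Lum* had a higher mean than *Bgn* in WT endometrium, and *Fmod* a higher mean than *Vcan* in Thra1PV/+ endometrium. The mean of *Dcn* was first in both genotypes, but in Thra1PV/+ endometrium it was above *Bgn* in only 1 of 4 libraries.

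Proportions among the 10 transcripts were taken from the deposited TPM and so carry the authors' normalization. *Dcn* made up 46.6, 35.3, 51.1 and 47.3% of the summed TPM of the 10 genes in Thra1PV/+ libraries 1 to 4 and 68.6, 63.3, 70.7 and 72.3% in WT libraries 1 to 4. Its share was lower in every Thra1PV/+ library. *Bgn* made up 26.2, 41.3, 35.5 and 36.6% in Thra1PV/+ and 12.4, 13.8, 9.17 and 12.5% in WT libraries, and *Fmod* 2.14, 5.31, 2.02 and 1.84% and 0.0395, 0.0663, 0.0363 and 0.0592%. Both shares were higher in every Thra1PV/+ library. Shares sum to 100% in a library, so that these 3 separations are not independent of one another. No share of all tested genes was counted beside them. The CPM of *Bgn* overlapped between genotypes, and so did its log2 ratios to *Col1a1*, *Col3a1*, *Vim* and *Pdgfra* within a library. The share of *Lum* overlapped, 4.66% to 14.4% against 1.62% to 16.1%.

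**Figure D4:**
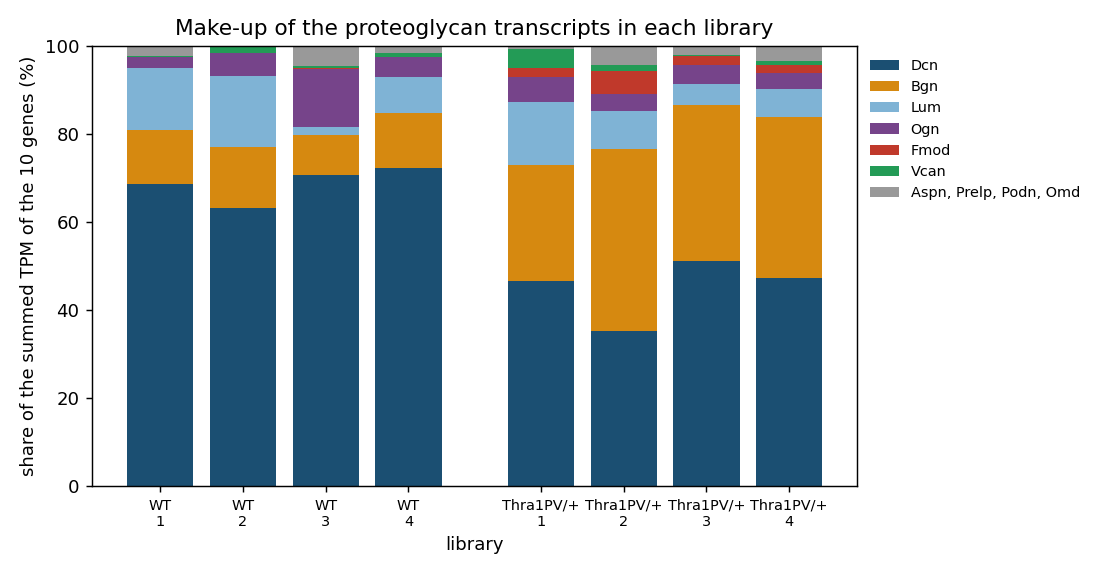
Share of each gene in the summed TPM of the 10 genes (percent, bars stacked from 0 to 100) in the 4 WT and 4 Thra1PV/+ libraries. Dcn takes the largest part of every WT bar, and Bgn and Fmod take larger parts of every Thra1PV/+ bar than of any WT bar.

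Ratios of counts within a library do not depend on how libraries are scaled to each other. As log2 ratios of CPM to *Dcn*, *Bgn* stood at -0.36, 0.82, 0.09 and 0.24 in Thra1PV/+ libraries 1 to 4 and -2.05, -1.64, -2.37 and -1.94 in WT libraries 1 to 4. *Fmod* stood at -3.12, -1.87, -3.65 and -3.58 and -9.79, -8.61, -10.26 and -9.49. These were 2 of 9 genes whose ratio to *Dcn* did not overlap between genotypes. Among all tested genes with counts in every library, 52.9% had a ratio to *Dcn* that did not overlap, all of them higher in Thra1PV/+, so 2 of 9 is below that background.

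*Dcn* was also set against collagen and fibroblast transcripts of the same library, references picked after their values were seen. Its log2 ratio of CPM to *Col1a1* was -2.36, -2.90, -1.55 and -2.31 in Thra1PV/+ libraries 1 to 4 and 0.13, -0.77, -0.15 and -0.10 in WT libraries 1 to 4, lower in every Thra1PV/+ library. Against *Col1a1*, 3 of the 10 proteoglycan genes did not overlap, *Dcn* and *Ogn* lower and *Fmod* higher, beside 1.98% of all tested genes with counts in every library (70 lower and 279 higher). The ratio of *Dcn* to the fibroblast marker *Pdgfra* was 0.89, -0.76, 1.29 and 0.87 in Thra1PV/+ and 2.68, 1.66, 2.83 and 1.90 in WT libraries, again lower in every Thra1PV/+ library. Ratios to *Pdgfra* did not overlap for 2 of the 10 genes, *Dcn* lower and *Fmod* higher, beside 4.70% of all such genes (14 lower and 815 higher of 17648). Against *Col3a1* they were 2 of 10, again *Dcn* lower and *Fmod* higher, beside 1.22% (20 lower and 195 higher), and against *Vim* 3 of 10, *Dcn* and *Ogn* lower and *Fmod* higher, beside 3.98% (17 lower and 685 higher).

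Some of these genes are neighbours in the genome. *Dcn* and *Lum* lie 47.0 kb apart on chromosome 10, followed by *Kera* and *Epyc*, which had 0 and 2 estimated counts over all 8 libraries. *Aspn*, *Omd* and *Ogn* follow one another on chromosome 13 with gaps of 14.9 and 15.2 kb, next to *Ecm2*, which had 11.9, 1.91, 4.60 and 5.90 CPM in Thra1PV/+ and 14.6, 11.2, 3.72 and 4.98 CPM in WT libraries and a log2 fold change of -0.50 (adjusted p = 0.857, standard error 0.61). *Aspn*, *Omd* and *Ogn* all had negative log2 fold changes, from -1.94 to -1.66 with all libraries in the fit. Without library 1 of both genotypes the values were -1.37 for *Aspn*, -2.67 for *Omd* and -3.01 for *Ogn*. These 3 genes lie within *Cenpp* on the opposite strand, whose exons overlap those of *Aspn* only. *Cenpp* had 409 counts over all libraries against 2183 for *Aspn*. The library kit keeps strand, but whether the counting used it is not given in the sources used here. On chromosome 1, *Prelp* and *Fmod* are 116 kb apart with *Optc* (opticin) 2.30 kb beyond *Prelp*. *Optc* had 0.496, 0.101, 0.184 and 0.823 CPM in Thra1PV/+ and 37.2, 1.16, 1.65 and 2.76 CPM in WT libraries, lower in every Thra1PV/+ library but with WT library 1 far above all others, and a log2 fold change of -4.72 (adjusted p = 0.284, standard error 1.36). The neighbours *Fmod* and *Prelp* thus had fold changes of opposite sign with all libraries in the fit.

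Promoters are shown for *Fmod*, whose log2 fold change was positive in every fit, and for the chromosome 13 neighbours *Aspn*, *Omd* and *Ogn*. The log2 fold changes of these neighbours were negative in every fit, as were those of *Dcn*, *Bgn*, *Lum* and *Podn*, whose promoters are not shown. Shown are the 250 bases before the RefSeq start site on GRCm38.p6, all on the plus strand. RefSeq promoters were found for 8 of the 10 genes, with no entry for *Dcn* and *Lum*. Capitals mark AGGTCA, the hexamer that thyroid hormone receptors and other nuclear receptors bind, and TATAAA, the core of a TATA box, each on either strand.
Fmod, chr1:134037004-134037253: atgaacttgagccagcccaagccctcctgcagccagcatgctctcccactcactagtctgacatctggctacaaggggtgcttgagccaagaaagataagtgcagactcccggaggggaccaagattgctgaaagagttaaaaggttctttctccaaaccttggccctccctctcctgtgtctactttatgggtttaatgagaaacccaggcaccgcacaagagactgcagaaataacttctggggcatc
Aspn, chr13:49544193-49544442: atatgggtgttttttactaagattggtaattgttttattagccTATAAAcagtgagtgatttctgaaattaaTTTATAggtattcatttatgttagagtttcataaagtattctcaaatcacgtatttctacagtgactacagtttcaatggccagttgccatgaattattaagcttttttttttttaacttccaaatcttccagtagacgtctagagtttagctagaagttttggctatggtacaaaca
Omd, chr13:49582212-49582461: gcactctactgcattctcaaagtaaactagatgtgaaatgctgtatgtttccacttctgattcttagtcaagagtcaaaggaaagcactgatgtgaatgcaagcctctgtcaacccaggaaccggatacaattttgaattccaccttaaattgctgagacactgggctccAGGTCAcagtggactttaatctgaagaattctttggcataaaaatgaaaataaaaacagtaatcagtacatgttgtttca
Ogn, chr13:49607765-49608014: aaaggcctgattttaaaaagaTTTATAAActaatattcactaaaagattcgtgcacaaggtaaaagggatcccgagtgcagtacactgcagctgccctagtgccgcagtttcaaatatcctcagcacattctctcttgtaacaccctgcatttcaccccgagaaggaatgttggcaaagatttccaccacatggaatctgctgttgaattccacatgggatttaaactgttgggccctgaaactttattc
In entries of 300 bases, which reach 50 bases past the start, AGGTCA was found on either strand in 2 of the 9 member promoters (*Omd* and *Podn*, which has 2 entries) and in 16.3% of all 32851 promoters. TATAAA was found in 2 of 9 (*Aspn* and *Ogn*, each with 2 matches, those of *Ogn* overlapping each other) and in 13.6% of all. These matches began 207 and 178 bases before the start site in *Aspn* and 229 and 227 in *Ogn*. The paired form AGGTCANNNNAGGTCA was found in 0 of the 9 and in 5 of all promoters. The *Fmod* promoter held none of these motifs in this window. These bases had a GC content of 51.2% in *Fmod* and 30.0%, 38.4% and 42.0% in *Aspn*, *Omd* and *Ogn*, beside a median of 52.4% over all promoters. A match describes the sequence and does not show that a receptor binds there or that a TATA box is in use.

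The collagens that these proteoglycans bind gave no call. Of 14 such collagen genes, 13 were tested. With edgeR 0 were called, beside 0.990% of all tested genes, and 0 had an unadjusted p under 0.05, beside 9.77%. The median log2 fold change was -0.30. *Col1a1* had 1605, 151, 323 and 489 CPM in Thra1PV/+ libraries 1 to 4 and 958, 1232, 404 and 451 CPM in WT libraries 1 to 4, and a log2 fold change of -0.25 (adjusted p = 0.950, standard error 0.70). Thra1PV/+ library 1 was the highest of all 8, and the median of the list was -1.49 without it and -0.01 without WT library 2. *Col3a1* (-0.33) and *Col1a2* (-0.56) had log2 fold changes of the same sign and overlapping libraries. The smallest p of the list belonged to *Col12a1* (-1.31) and *Col5a3* (-0.58), log2 fold changes in parentheses.

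Of 10 further SLRP genes, 7 were tested, 0 were called, and 2 had an unadjusted p under 0.05, *Optc* lower and *Tsku* higher. The shares of all tested genes were 0.990% called and 9.77% with an unadjusted p under 0.05. *Tsku* (tsukushi), which binds BMP ligands, had 40.8, 43.9, 35.8 and 34.9 CPM in Thra1PV/+ and 19.9, 30.0, 7.74 and 13.4 CPM in WT libraries. Every Thra1PV/+ library was above every WT library, with a log2 fold change of 1.13 (adjusted p = 0.352, standard error 0.37). *Kera* and *Nepn* had 0 counts in every library, and *Chad* had a log2 fold change of 0.53. The list median was -0.29 and had no stable sign, -0.45 to 0.04 with 1 library left out and 0.47 among genes with at least 10 counts in every library.

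Versican works with hyaluronan. The list of 16 genes for hyaluronan synthesis, binding and breakdown had 12 tested, 0 called and 3 with an unadjusted p under 0.05, all higher. Of all tested genes, 0.990% were called and 9.77% had an unadjusted p under 0.05. The list median was 0.43, but it was -0.36 without WT library 3 and -0.07 over the genes that DESeq2 fitted. *Has3*, a hyaluronan synthase, had 4.83, 7.37, 4.66 and 3.12 CPM in Thra1PV/+ and 0.796 to 2.04 CPM in WT libraries, every Thra1PV/+ library above every WT library, and a log2 fold change of 2.07 (adjusted p = 0.101, standard error 0.42), just outside the threshold. *Cd44*, the main hyaluronan receptor, had 96.3, 136, 89.1 and 58.3 CPM in Thra1PV/+ and 60.8, 48.1, 11.6 and 34.5 CPM in WT libraries, overlapping in 1 Thra1PV/+ and 1 WT library, and a log2 fold change of 1.29 (adjusted p = 0.413, standard error 0.47). *Cemip2* had a log2 fold change of 0.53 (adjusted p = 0.507), and *Hyal2*, a hyaluronidase, 0.33.

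Enzymes that build the glycosaminoglycan chains were counted beside the shares of all tested genes, 0.990% called and 9.77% with an unadjusted p under 0.05. Of 22 chondroitin and dermatan sulfate genes, 20 were tested, 0 were called and 1 had an unadjusted p under 0.05, *Dsel*, an epimerase of dermatan sulfate, with a log2 fold change of -0.69 (adjusted p = 0.437). The median was -0.11, or -0.11 to 0.01 with 1 library left out. Log2 fold changes were *Fam20b* (0.04), *B3gat3* (-0.19) and *Chst11* (-0.03) for the genes with the highest mean log2 CPM, which takes no account of length, and *Chpf* (-0.76) had the next smallest p. Of 8 keratan sulfate genes, 6 were tested, 0 were called and 0 had an unadjusted p under 0.05, with a median of -0.14, and *B4galt1*, highest in mean TPM, had a log2 fold change of -0.13, beside *B3gnt2* (0.23), *B4galt4* (-0.31) and *Chst2* (-1.17). With 1 library left out that median was -0.26 to 0.01. Of 11 proteases and enhancers that process versican, biglycan and procollagen, 9 were tested, 0 were called and 2 had an unadjusted p under 0.05, both lower, with a median of -0.28 that was 0.06 without WT library 1 and -0.45 without WT library 3. *Adamts5*, a versican-cleaving protease, had 9.36, 4.97, 9.13 and 21.8 CPM in Thra1PV/+ and 48.5, 29.6, 22.3 and 18.5 CPM in WT libraries and a log2 fold change of -1.39 (adjusted p = 0.381, standard error 0.48). *Adamts9* had a log2 fold change of -0.70 (adjusted p = 0.341), beside *Bmp1* (-0.28), *Adamts1* (0.34) and *Adamts15* (0.33). Of 15 growth factors and receptors that SLRPs bind, 15 were tested, 0 were called and 1 had an unadjusted p under 0.05, *Tgfb1*, with 36.5, 44.5, 43.1 and 32.7 CPM in Thra1PV/+ and 25.6, 18.2, 19.4 and 33.6 CPM in WT libraries and a log2 fold change of 0.70 (adjusted p = 0.341, standard error 0.22). The median was 0.12, or 0.07 to 0.20 with 1 library left out, and log2 fold changes were *Lrp1* (0.15), *Erbb2* (-0.01) and *Met* (0.26), with *Ccn4* (-1.75) next by p. Calls by the other tools were not counted over these lists.

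Some markers of cell types differed between genotypes, counted here beside 0.990% of all tested genes called and 9.77% with an unadjusted p under 0.05. The stromal fibroblast list had 0 of 16 genes called with edgeR and 2 with an unadjusted p under 0.05, *Mfap5* (-1.32) and *Tcf21* (-2.14), both lower, beside *Nr2f2* (-0.35), *Esr1* (-0.21) and *Vim* (-0.78). Its log2 fold changes were negative for 15 genes and positive for 1 (1.72), with a median of -0.81. Without Thra1PV/+ library 1 the median was -1.53, and without WT library 2 it was -0.29. In the smooth muscle list 0 of 10 genes were called, 9 had an unadjusted p under 0.05, all lower, and the median was -3.96, or -1.27 without WT library 1. Log2 fold changes there were *Acta2* (-4.01), *Des* (-2.22), *Tagln* (-3.44), *Myh11* (-4.60) and *Actg2* (-5.17). The squamous epithelium list of 13 genes, with *Krt5* highest in mean TPM in Thra1PV/+ endometrium, had 9 called, all higher, and summed to 3079, 4519, 4740.5 and 3522 CPM in Thra1PV/+ and 12.5, 48.2, 77.9 and 30.1 CPM in WT libraries. The called genes included *Krt5* (7.43), *Krt13* (6.08), *Krt15* (7.84), *Col17a1* (7.17), *Pkp1* (6.78), *Trp63* (6.11) and *Ivl* (8.91). *Krt14* and *Ivl* had 0 counts in at least 1 WT library. The median of the list was 6.11, and 12 of 13 genes had an unadjusted p under 0.05. The part of squamous, smooth muscle and stromal content in the differences of the proteoglycan genes was not tested.

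The remaining lists gave 1 call, counted beside the same shares of all tested genes, 0.990% called and 9.77% with an unadjusted p under 0.05. Of 12 simple epithelium genes 0 were called and 0 had an unadjusted p under 0.05 (median 0.03, or -0.15 to 0.29 with 1 library left out), with *Krt8* (-0.25), *Krt19* (-0.03), *Elf3* (0.33) and *Cldn4* (0.81). The 8 endothelium genes, with *Egfl7* highest in mean TPM, summed to 267, 87.2, 166 and 163 CPM in Thra1PV/+ and 339, 255, 118 and 141 CPM in WT libraries, and the 8 macrophage genes, with *Cd14* highest in mean TPM in Thra1PV/+ and *Lyz2* in WT endometrium, to 1336, 839, 989.6 and 753 CPM and 809, 588, 825 and 909 CPM. In both lists 0 genes were called and 0 had an unadjusted p under 0.05, with medians of -0.27 (-0.59 to -0.04 with 1 library left out) and 0.29 (-0.04 to 0.50). Log2 fold changes were *Egfl7* (-0.23), *Pecam1* (-0.39), *Cdh5* (0.10) and *Tek* (-1.84) in endothelium and *Cd14* (0.51), *Lyz2* (0.24), *C1qa* (0.18), *Csf1r* (0.55) and *Mrc1* (-0.85) in macrophages. The 6 pericyte genes, with *Rgs5* highest in mean TPM, summed to 338, 113, 170.2 and 140.4 CPM in Thra1PV/+ and 449.7, 333, 160.2 and 190.1 CPM in WT libraries (median -0.58, or -1.05 to -0.29 with 1 library left out). In that list *Notch3* was called higher, a log2 fold change of 1.32 (adjusted p = 0.0181, standard error 0.17), and the other 5 genes had negative log2 fold changes, *Rgs5* (-0.70), *Abcc9* (-1.25) and *Kcnj8* (-2.04) among them. Of 5 mesothelium genes 2 were tested, 0 were called and 0 had an unadjusted p under 0.05, *Wt1* (-1.12) and *Upk3b* (-0.63), and their median of -0.88 was -1.32 to -0.32 with 1 library left out and turned to 0.48 over the genes that DESeq2 fitted. Their sum, 70.7, 17.7, 17.6 and 21.9 CPM in Thra1PV/+ and 144, 76.3, 24.1 and 28.5 CPM in WT libraries, was nearly all *Wt1*, which endometrial stroma also expresses.

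The genes most like *Dcn* and *Vcan* over the 8 libraries were sought among the 8891 genes whose mean log2 CPM was 4 or more. For *Dcn* they were *Naa38* (0.992), *S100a1* (0.979), *Peg13* (0.978), *Hsbp1* (0.967), *Scarb1* (0.965) by Pearson r (Spearman rho of the first 0.952, n = 8 libraries), values that include the genotype difference. Measured as deviations from the genotype means they were *Pla2g15* (0.986), *Sdc3* (0.983), *Naa38* (0.979), *Selenop* (0.978), *Arhgef6* (0.976). For *Vcan* they were *Ercc6l2* (0.982), *Mbtps1* (0.979), *Exoc3* (0.975), *Fam45a* (0.972), *Klhl20* (0.968), and on deviations 4 of the same 5, with *Fn1* (fibronectin, 0.973) in place of *Fam45a*. With 8 libraries and 8891 genes, correlations of this size describe these libraries only. Among the 45 pairs of the 10 genes, the median correlation was 0.411 on log2 CPM and 0.495 on deviations. *Podn* had a negative correlation of deviations with 6 of the other 9.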

How the data were processed

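Endometrium was laser-captured from uterine sections of 4 Thra1PV/+ and 4 WT mice. Per the study's methods and the labels, libraries were strand-specific, reads were trimmed (Trimmomatic) and quantified with salmon against mm10, versions not given in the sources used here. The estimated counts per gene that the authors deposited are not normalized, and the TPM per gene that the authors deposited form another table. Once sorted, TPM of any 2 libraries were within 0.290 TPM of each other, so the deposited TPM appear to be quantile-normalized, a step not described. That table has 1 further per-sample column that matches no sample and was not used.

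Estimated counts were rounded and tested with edgeR 4.0.16 (R 4.3.3) after TMM and filterByExpr (minimum count 10, minimum total 15), with genotype as the only term and Benjamini-Hochberg adjustment over all 18174 tested genes. Standard errors are the log2 fold change over the root of its F statistic. Log2 CPM used a prior count of 2. Symbols were matched for 52220 of 52325 identifiers. Positions are from GENCODE M21 (GRCm38), which holds the same identifier version for 16271 of the tested genes. Promoters are from RefSeq (GRCm38.p6). The scripts were tested on simulated data. Counting depth was at least 48791602 per library, where 3 counts are the floor. No pair of libraries held identical counts.

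The members and the 15 other lists (further SLRPs, hyaluronan, chondroitin and keratan sulfate synthesis, processing proteases, bound collagens, bound growth factors and receptors, and 8 cell types) were chosen with earlier results of these data known. Genes named in the text are all members and genes drawn from the 3 with the highest mean log2 CPM, the 2 with the smallest p and up to 4 called genes of each list, and the 5 genes most like Dcn and Vcan. Thra, Pdgfra, Cenpp, and list genes at or near 0 counts were named outside that rule after their values were seen. Alternatives were DESeq2 1.42.0, limma 3.58.1 (voom with sample quality weights, and log2 TPM with a pseudocount of 1 or 0.1), other normalizations, filters and thresholds, the replicate number as a block, and each library left out.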

Additional observations from a re-analysis of the deposited data

Results flagged for a closer look

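A library was singled out where its gap to the nearest of the other 3 libraries of its genotype, on a log2 scale, took up an unusually large part of the range of all 4. Among 50 groups of 4 libraries, 4 stood out in this way, where chance gives 2.5, since chance singles out about 1 in 20 groups. For *Prelp*, WT library 1 had 45.9 CPM, where the other 3 libraries of its genotype had 3.50 to 4.54 CPM. For *Omd*, WT library 3 had 2.59 CPM, where the other 3 libraries of its genotype had 0.649 to 0.722 CPM. For *Vcan*, Thra1PV/+ library 1 had 114 CPM, where the other 3 libraries of its genotype had 5.15 to 8.46 CPM. The summed mesothelium genes, nearly all *Wt1*, in Thra1PV/+ library 1 stood at 70.7 CPM, where the other 3 libraries of its genotype had 17.6 to 21.9 CPM.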

How the results depend on the processing

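Of 189 log2 fold changes of the 10 genes under alternatives, 176 kept their direction and their side of the threshold, 5 kept their direction and passed it, and 8 changed sign, 2 of *Prelp* and 6 of *Vcan*. *Fmod* passed with DESeq2 (3.93), with at least 1 count in any library (3.91), with limma voom (3.52) and with log2 TPM at a pseudocount of 0.1 (3.37), and *Dcn* with DESeq2 (-2.22). The number of the 10 genes called was accordingly 2 with DESeq2, 1 in each of the other 3 and 4 at an unadjusted p under 0.05. It was 0 in all fits that left out 1 library. Over all genes, DESeq2 called 791 (3.58%) and limma voom 311 (1.71%). The fit with at least 1 count in any library called 187, and log2 TPM at a pseudocount of 0.1 called 225. At an unadjusted p under 0.05, 1775 of all tested genes passed (9.77%). *Vcan* turned negative with the replicate block (-0.77), limma voom (-1.52), log2 TPM with pseudocounts of 1 (-0.68) and 0.1 (-1.23), without Thra1PV/+ library 1 (-1.98) and without library 1 of both genotypes (-2.13). *Prelp* turned positive without WT library 1 (0.26) and without library 1 of both (0.17). That last alternative was chosen after seeing the data. *Vcan* without 1 library ranged from -1.98 to 1.10, and *Prelp* from -2.04 to 0.26.

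Genes called in all numbered 180, and 791 with DESeq2, 81 with at least 10 counts in every library, 82 with the replicate block, 311 with limma voom, 1775 at an unadjusted p under 0.05, 119 at an adjusted p of at most 0.05 and 81 to 167 without 1 library. The share that was higher was 168 of 180 by edgeR, 568 of 791 by DESeq2 and 253 of 311 by limma voom. The median of the 10 genes was -0.74 with log2 TPM at a pseudocount of 1, and 11 of 288 list medians moved by at least the SD of the list's medians in single libraries. Of the 10 genes, 3 had no overlap between genotypes after TMM, beside 6.04% of all tested genes, and 1 with library totals alone. In the deposited TPM, *Fmod* and *Omd* had no overlap. The share of all genes was not counted on those other scales. By counts per length, 6 of 10 genes kept their place in each genotype. With a minimum of 2 in place of 4, the most alike genes kept 4 (*Dcn*) and 5 (*Vcan*) of 5, and on deviations 0 and 2. The cause of these shifts was not tested.

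The labels do not say whether libraries with the same number share anything beyond it. Correlations of their deviations from the genotype means were 0.269, -0.436, 0.340 and -0.159, and 1 of 4 Thra1PV/+ libraries correlated best with its own number. With the replicate block, 0 of the 10 genes were called. Every alternative was run, but *Omd* could not be tested with at least 10 counts in every library. Depth limits *Omd* most, with 1 count in Thra1PV/+ library 2.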
